A study of Saccharomyces cerevisiae with 6 samples.

Results

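The genes described here are the 9 cyclins of the yeast cell-cycle kinase Cdc28 and SIC1, the inhibitor of its B-type cyclin complexes. They were taken by symbol from the table of counts, which lists 7127 features, and all 10 (CLN1, CLN2, CLN3, CLB1 to CLB6 and SIC1) were found and passed the filter on low counts. The study asked how ageing alters mitochondrial function in budding yeast, Saccharomyces cerevisiae, and sequenced poly(A)-selected RNA from young and from aged cells. All 6 libraries came from strain CGY4.51, named WT in the library names, with the genotype label MAT@. The young group was 3 cultures in exponential growth in synthetic complete medium, and the aged group was 3 populations kept for 24 h in ministat aging devices. Batch numbers 1 to 3 occur once in each group. Neither a deletion nor a drug is labelled for either group. The device protocol that the methods cite for these samples adds methyl-alpha-D-mannopyranoside to the medium against clumping, and whether the young cultures also had it is not given in the sources used here.

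Several features of the design limit what a cyclin level can say. A ministat aging device holds mother cells coated with magnetic beads while a flow of medium carries their daughters away, so the aged group differed from the young in culture system as well as in age, and these cannot be told apart. The young cultures, which were not held in a device, kept their daughters. The share of daughters in the young cultures, or left among the aged cells, is not given in the sources used here. RNA was taken from whole populations, in which fewer cells of a cell-cycle phase and less RNA per cell cannot be told apart.

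Cdc28 is a kinase that acts only when bound to a cyclin, and the cyclin sets when in the cycle it acts. Cln3 works upstream of Start, the point in G1 where yeast commits to division, and helps to switch on the transcription factors SBF and MBF. These factors drive CLN1 and CLN2, which promote budding, and CLB5 and CLB6, which start DNA replication. CLB3 and CLB4 follow as the spindle forms, and CLB1 and CLB2 peak before mitosis. Sic1 holds Clb kinase inactive through G1 until it is marked for destruction, and it returns as cells leave mitosis, when SIC1 is transcribed by Swi5. Most of these transcripts therefore rise and fall once per division, and their level in a mixed population depends on how its cells are spread over the cycle.

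Stretches of promoter were read from the R64 genome of RefSeq, the build the submitters name, to show matches to short motifs of cell-cycle transcription factors. Whether any match is a bound site was not tested. Each stretch spans the most matches that lie within 100 bases, with 6 bases on either side, and is written 5′ to 3′ on the gene's own strand, in lower case, with matches of the named motif in capitals. The first pair holds matches to motifs linked to G2/M transcription. A forkhead motif (GTAAACA, read as TGTTTAC on the other strand) lies next to a degenerate Mcm1 motif (CC, any 6 bases, then GGAAA). The stretches lie at chrVII:703002-703038 (+ strand, 634 to 598 bases before the start codon of CLB1) and at chrXVI:770883-770984 (+ strand, 770 to 669 bases before that of CLB2).
CLB1: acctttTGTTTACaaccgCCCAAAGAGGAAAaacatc
CLB2: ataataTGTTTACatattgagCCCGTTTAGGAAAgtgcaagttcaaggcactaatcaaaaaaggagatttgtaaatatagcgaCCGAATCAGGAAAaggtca
The second pair holds the cores of MCB elements (ACGCG, or CGCGT on the other strand), which MBF binds, at chrXVI:775511-775596 (− strand, 414 to 329 bases before the start codon of CLB5) and at chrVII:706856-706944 (− strand, 443 to 355 bases before that of CLB6).
CLB5: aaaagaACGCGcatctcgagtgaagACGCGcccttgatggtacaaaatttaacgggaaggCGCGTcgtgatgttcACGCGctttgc
CLB6: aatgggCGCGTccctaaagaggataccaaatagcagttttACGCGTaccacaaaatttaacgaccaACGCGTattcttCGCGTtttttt
The last pair holds SCB elements (CNCGAAA), which SBF binds, at chrXVI:67140-67226 (− strand, 612 to 526 bases before the start codon of CLN2), and the core of Swi5 sites (CCAGC, or GCTGG) at chrXII:286648-286687 (+ strand, 172 to 133 bases before that of SIC1).
CLN2: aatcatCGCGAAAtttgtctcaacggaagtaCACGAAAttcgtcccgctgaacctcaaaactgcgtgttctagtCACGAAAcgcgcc
SIC1: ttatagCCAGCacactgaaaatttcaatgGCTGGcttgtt

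Across the 800 bases before the start codon, read on both strands with overlapping matches of one motif counted as 1, CLB5 held 5 MCB cores, CLB6 held 4 and CLN1 held 3. An MCB core occurred in 7 of the 10 genes and in 32.8% of 5984 protein-coding promoters of that length, and 8.17% of promoters had at least 2. The SCB motif occurred in 5 of the 10 genes, 3 times each in CLN1 and CLN2, and in 29.9% of promoters. The Mcm1 motif was found in 4 of the 10, namely CLN3, CLN2, CLB1 and CLB2, against 12.6% of promoters. The forkhead motif was found in 5 of the 10 against 15.1%, and the Swi5 core in 7 of the 10 against 55.5%, so that last core marks more promoters than not. The SCB and MCB letters can share bases, where ACGCG is followed by AAA. The window was fixed at 800 bases whatever lies upstream, and the next annotated gene ends or starts 286 bases before CLB3 and 275 before CLB4. The Swi5 cores of CLB3 and the SCB, MCB and Swi5 matches of CLB4 lay beyond that gap, and the tallies include them. All these matches are a description of the letters and not of bound sites.

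The 4 pairs of sister genes can be told apart by their reads. Over the aligned coding sequence CLB1 and CLB2 were 66.6% identical, CLN1 and CLN2 64.5%, CLB5 and CLB6 60.8%, and CLB3 and CLB4 60.3%. In the most alike stretch of 150 alignment columns, the read length, the members of a pair still differed at 32 to 46 columns, with gaps counted as differences. All 10 genes have 1 coding exon and overlap no annotated gene. CLB1 (chrVII:703636-705051, + strand) and CLB6 (chrVII:705359-706501, − strand) face each other across 307 bases, and CLB2 (chrXVI:771653-773128, + strand) and CLB5 (chrXVI:773875-775182, − strand) across 746 bases. The kit kept strand, but the strand setting of the counting is not given in the sources used here, and a part of read-through from one neighbour in the counts of the other was not tested.

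The libraries held 29230292 to 41650202 estimated counts, and the 10 genes together took 0.0582% to 0.0641% of the counts in young libraries and 0.0773% to 0.0854% in aged libraries. Levels below are CPM, counts scaled to library size and by the trimmed mean of M-values (TMM), and log2 fold changes are aged over young from edgeR's quasi-likelihood test with Benjamini-Hochberg adjustment over all 6755 features tested. With scaling by total counts alone the median feature moved from a log2 fold change of 0.025 to 0.54, so each change given here is relative to the bulk of the transcriptome. As a check on the strain label, the 4 alpha-specific genes summed to 3389 to 5375 CPM and the 6 a-specific genes to 31.7 to 38.7 CPM over the 6 libraries, so alpha-cell transcripts dominated in both groups.

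In aged cells the cyclins did not move as one. CLN3 and CLB1 rose, while CLB5, CLB6, CLB2, CLB4 and CLB3 fell, and CLN1, CLN2 and SIC1 did not pass the test. With total counts only, CLB3 and CLB4 turned direction, CLB6 and CLB2 did not pass, and CLN1, CLN2 and SIC1 passed as higher. After TMM scaling the S-phase cyclin CLB5 had the largest change of the 10, and the mitotic sisters CLB1 and CLB2 moved in opposite directions. With total counts only, the largest log2 fold change was that of CLN3 (1.06), against −0.42 for CLB5. The 2 of 10 genes that rose compare with 32.7% of all features, and the 5 of 10 that fell with 30.8%, in a comparison where 63.5% of features passed the threshold of an adjusted p of 0.05. The median log2 fold change of the 10 genes was −0.28. These same 7 genes were the ones whose aged and young libraries did not overlap, which held for 70.1% of all features (36.3% with aged libraries higher and 33.7% with aged libraries lower).

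**Figure D1:**
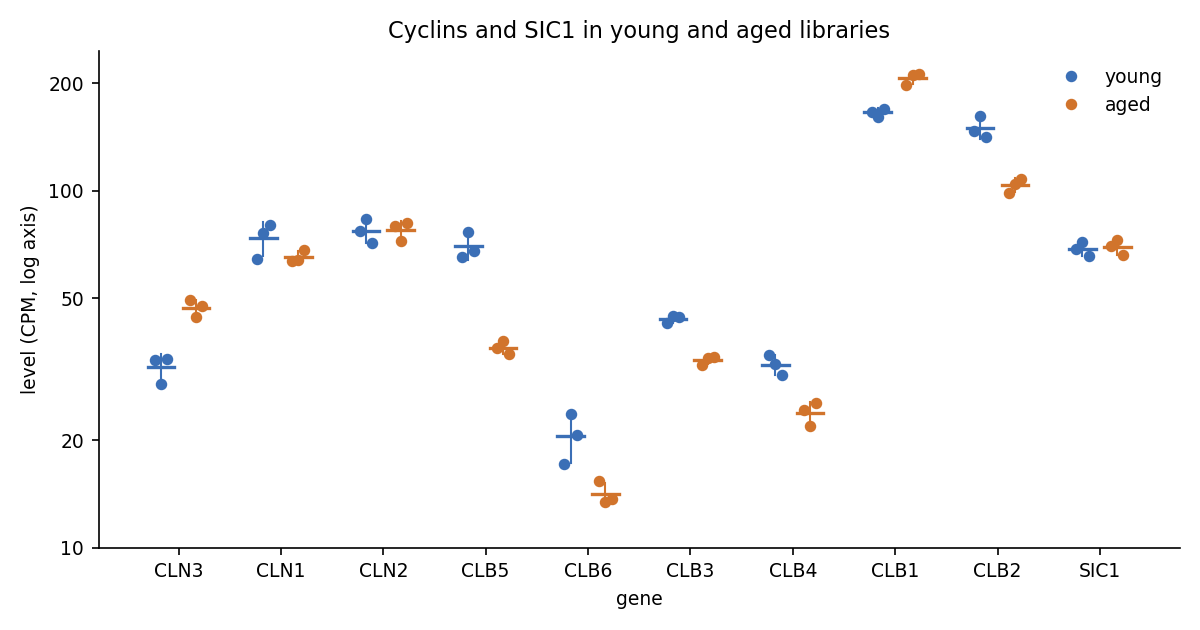
Level of each gene in each library (CPM, log axis), with young libraries in blue and aged libraries in orange. Short horizontal lines are group means and vertical lines are ± 1 SD over 3 libraries. The aged libraries lie above the young ones for CLN3 and CLB1, below them for CLB5, CLB6, CLB3, CLB4 and CLB2, and overlap them for CLN1, CLN2 and SIC1. With total counts only, the direction turns for CLB3, CLB4 and CLN1.

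CLN3 (YAL040C, chrI:65778-67520, − strand), the cyclin that acts first and is held at low abundance, stood at 33.5, 28.8 and 33.8 CPM in young replicates 1 to 3 and at 49.3, 44.2 and 47.4 CPM in aged replicates 1 to 3. Every aged library lay above every young one. The mean went from 32.0 ± 2.79 to 47.0 ± 2.58 CPM (SD, n = 3), a 1.47-fold rise (log2 fold change 0.55, SE 0.083, edgeR adjusted p = 0.000250). Within batches 1, 2 and 3 the log2 difference was 0.56, 0.62 and 0.49. This was the only G1 cyclin past the threshold.

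CLN1 (YMR199W, chrXIII:662644-664284, + strand), a late-G1 cyclin switched on at Start, stood at 64.4, 76.2 and 79.9 CPM in young libraries and at 63.6, 64.1 and 68.2 CPM in aged libraries. The groups overlapped, because young replicate 1 lay among the aged libraries. The log2 fold change was −0.17 (95% interval −0.36 to 0.02, edgeR adjusted p = 0.107). Leaving out young replicate 1 gave a fall of 0.27 on the log2 scale with an edgeR adjusted p of 0.00531, so the call changed on leaving out 1 library. It also changed with all libraries kept. The length offset gave a fall of 0.39 (edgeR adjusted p = 0.00216), and total counts only gave a rise of 0.35 (edgeR adjusted p = 0.00823).

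Its sister CLN2 (YPL256C, chrXVI:64977-66614, − strand) stood at 77.2, 83.2 and 71.3 CPM in young libraries and at 79.6, 72.1 and 81.0 CPM in aged libraries. The values were interleaved and the means were close, at 77.2 ± 5.96 and 77.6 ± 4.76 CPM (SD, n = 3). The 95% interval of the log2 fold change ran from −0.17 to 0.18 (edgeR adjusted p = 0.947). Each promoter held 3 SCB motifs, printed above for CLN2, with 3 MCB cores in CLN1 and 1 in CLN2. With an offset on coding length both sisters fell, CLN1 by 0.39 (adjusted p = 0.00216) and CLN2 by 0.22 (adjusted p = 0.0311) on the log2 scale.

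CLB5 (YPR120C), the main cyclin for firing replication origins, stood at 65.0, 76.7 and 67.9 CPM in young libraries and at 36.3, 38.0 and 34.8 CPM in aged libraries. The lowest young library was well above the highest aged one. The mean fell from 69.8 ± 6.08 to 36.4 ± 1.57 CPM (SD, n = 3), which is 1.92-fold lower (log2 fold change −0.94, SE 0.080, edgeR adjusted p = 8.26e-06), and the difference was −0.84, −1.01 and −0.96 within the batches. Of all features tested, 5.67% had a lower log2 fold change.

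CLB6 (YGR109C), the sister of CLB5 that also acts at the start of S phase, had the lowest level per length of the 10 genes in both groups. It stood at 17.2, 23.7 and 20.7 CPM in young libraries and at 15.4, 13.4 and 13.7 CPM in aged libraries. The groups did not overlap, but young replicate 1 came close to aged replicate 1. CLB6 fell by 0.54 on the log2 scale (SE 0.12, edgeR adjusted p = 0.00280), with −0.16, −0.82 and −0.60 within the batches. With an offset on GC content the fall was 0.17 and no longer passed the test (adjusted p = 0.192).

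CLB3 (YDL155W, chrIV:176773-178056, + strand) and CLB4 (YLR210W, chrXII:562008-563390, + strand) act in S phase and in building the spindle. CLB3 stood at 42.6, 44.7 and 44.2 CPM in young libraries and at 32.5, 33.9 and 34.1 CPM in aged libraries. CLB4 stood at 34.6, 32.6 and 30.5 CPM in young libraries and at 24.3, 22.0 and 25.4 CPM in aged libraries. Both genes were lower in every aged library than in any young one. CLB3 fell by 0.39 on the log2 scale (SE 0.066, edgeR adjusted p = 0.000566) and CLB4 by 0.45 (SE 0.084, edgeR adjusted p = 0.000998). Of the 7 genes that passed the test, CLB3 had the most even differences within batches, at −0.39, −0.40 and −0.37.

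CLB1 (YGR108W), a mitotic cyclin of the same G2/M cluster as CLB2, had the highest level per length of the 10 in both groups. It stood at 165.7, 161.2 and 169.7 CPM in young libraries and at 197.8, 210.2 and 211.7 CPM in aged libraries. All aged libraries were above all young ones, and the mean rose 1.25-fold, from 165.5 ± 4.26 to 206.6 ± 7.65 CPM (SD, n = 3; log2 fold change 0.32, SE 0.072, edgeR adjusted p = 0.00295). With an offset on coding length the change was 0.12 and no longer passed the test (adjusted p = 0.138).

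CLB2 (YPR119W), the main cyclin for entry into mitosis, stood at 146.8, 161.5 and 141.2 CPM in young libraries and at 98.6, 104.1 and 108.1 CPM in aged libraries. The groups were again separate, in the direction opposite to CLB1. The mean fell from 149.8 ± 10.5 to 103.6 ± 4.77 CPM (SD, n = 3; log2 fold change −0.53, SE 0.078, edgeR adjusted p = 0.000210).

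SIC1 (YLR079W, chrXII:286820-287674, + strand), the inhibitor, stood at 68.4, 71.8 and 65.7 CPM in young libraries and at 69.9, 72.9 and 65.9 CPM in aged libraries. The groups overlapped fully, and within each batch the libraries differed by 0.031, 0.022 and 0.0054 on the log2 scale. The 95% interval of its log2 fold change ran from −0.14 to 0.18 (edgeR adjusted p = 0.818). With an offset on GC content SIC1 fell by 0.20 on the log2 scale (adjusted p = 0.0237).

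**Figure D2:**
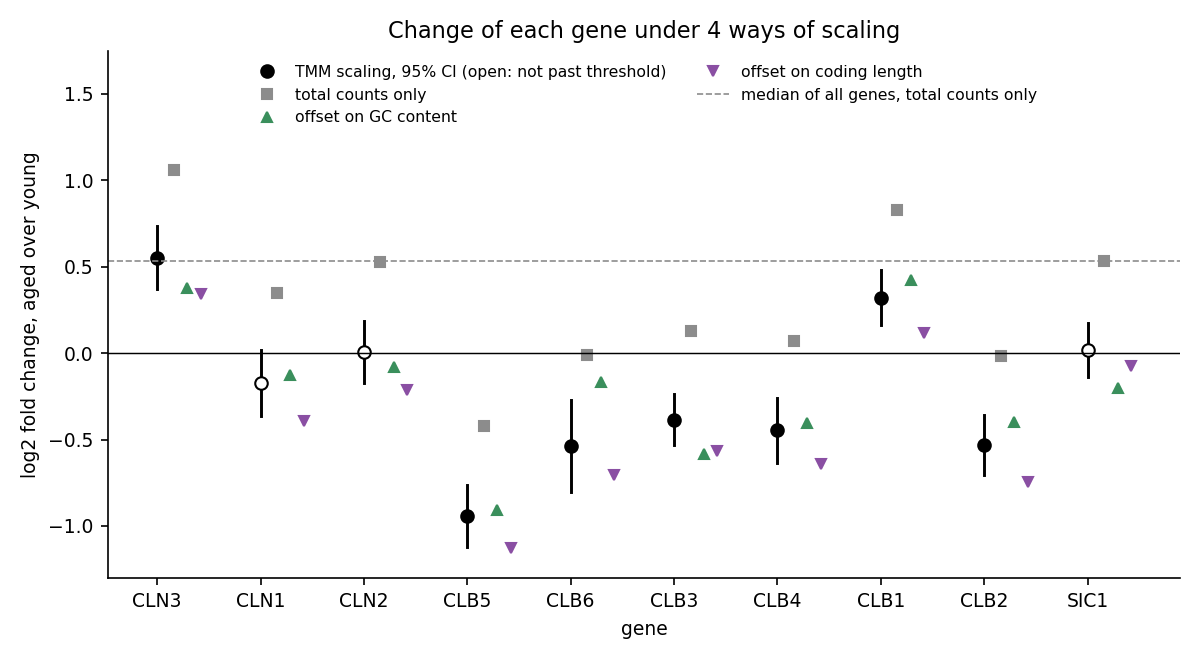
Log2 fold change (aged over young) of each gene under 4 ways of scaling. Circles with 95% confidence intervals are the values after TMM scaling, open where the adjusted p was not under 0.05, and squares, upward triangles and downward triangles are total counts only, an offset on GC content and an offset on coding length. The dashed line at 0.54 is the median of all features with total counts only, and CLB5 lies lowest under each scaling.

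The scaling bears on these directions. With total counts only, CLN3 (1.06), CLB1 (0.83), CLN2 (0.53), SIC1 (0.53) and CLN1 (0.35) passed the test as higher and CLB5 (−0.42) as lower, on the log2 scale. CLB3 (0.13), CLB4 (0.068), CLB2 (−0.014) and CLB6 (−0.013) did not pass. Relative to the median of all features under the same scaling, CLB2 and CLB6 were each at −0.55, CLB4 at −0.47, CLB3 at −0.41 and CLB1 at 0.30. CLN3 and CLB5 kept their call and direction under all 19 alternatives to the main analysis.

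Ratios of a pair of genes within one library do not depend on its scaling, though offsets that differ between genes can move them. Of the 7 pairs compared, CLB1 over CLB2 moved most. The ratio of counts was 1.13, 0.998 and 1.20 in young libraries and 2.01, 2.02 and 1.96 in aged libraries, so the sisters went from near parity to CLB1 at a clear excess. The groups did not overlap, and the log2 ratio differed by 0.85 (SE 0.080), with 0.83, 1.02 and 0.70 within the batches. The 2-sided exact permutation test gave p = 0.1, which is the smallest that 3 against 3 libraries can give, and an adjusted p of 0.175 over the 7 pairs, so no ratio could pass a threshold of 0.05. The fitted difference between CLB1 and CLB2 lay between 0.78 and 0.91 in every fit run, including 0.82 with the GC offset and 0.86 with the length offset.

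Of the other sister pairs, CLB5 over CLB6 was 3.78, 3.23 and 3.28 in young libraries and 2.36, 2.83 and 2.55 in aged libraries, so the S-phase pair also shifted, towards CLB6. The groups did not overlap, and the log2 ratio differed by −0.41 (SE 0.105, exact permutation p = 0.1), although batch 2 alone gave −0.19 and the fit with the GC offset gave a difference of −0.74. For CLN1 over CLN2 the log2 ratio differed by −0.17 (SE 0.13, exact permutation p = 0.3; −0.27 to −0.054 without 1 library at a time), and for CLB3 over CLB4 by 0.062 (SE 0.096, exact permutation p = 0.6), with overlapping groups in both.

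Between genes of different phases, CLN2 over CLB2 was 0.526, 0.515 and 0.505 in young libraries and 0.808, 0.693 and 0.749 in aged libraries. SIC1 over CLB2 was 0.466, 0.445 and 0.466 in young libraries and 0.709, 0.701 and 0.610 in aged libraries. Both CLN2 and SIC1 were therefore higher relative to CLB2 in every aged library, by 0.54 (SE 0.066) and 0.55 (SE 0.073) on the log2 scale, each with an exact permutation p of 0.1. These ratios share CLB2 as their denominator, and CLB2 is the member of each pair that fell. In the fit with the GC offset the differences from CLB2 were smaller, at 0.32 for CLN2 and 0.20 for SIC1. SIC1 over CLN2 differed by 0.012 (SE 0.095, exact permutation p = 0.9).

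**Figure D3:**
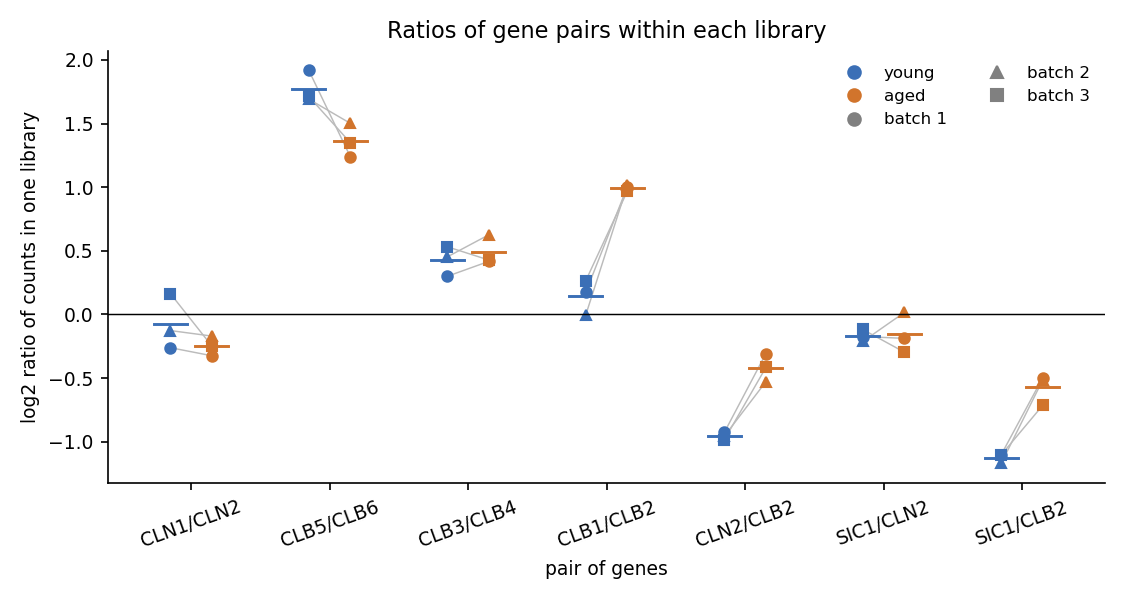
Log2 ratio of the counts of 2 genes within each library for 7 pairs, young in blue and aged in orange. Circles, triangles and squares are batches 1, 2 and 3, thin lines join libraries of one batch, and horizontal lines are group means. For CLB1 over CLB2 the mean moved from 0.15 to 0.996, and the groups do not overlap for CLB5/CLB6, CLB1/CLB2, CLN2/CLB2 and SIC1/CLB2.

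Divided by coding length, the order of levels changed as well. In young cells CLB1 (116.9 CPM per kb) and CLB2 (101.5 CPM per kb) led, followed by SIC1 (80.3 CPM per kb), CLB5 (53.4 CPM per kb), CLN2 (47.2 CPM per kb) and CLN1 (44.8 CPM per kb). CLB3 (34.1 CPM per kb), CLB4 (23.6 CPM per kb), CLN3 (18.4 CPM per kb) and CLB6 (18.0 CPM per kb) were lowest. The neighbours CLB5 and CLN2, CLN2 and CLN1, and CLN3 and CLB6 overlapped between libraries. In aged cells SIC1 (81.4 CPM per kb) stood second, above CLB2 (70.2 CPM per kb), and CLB5 (27.8 CPM per kb) stood below CLN2 (47.4 CPM per kb) and CLN1 (39.8 CPM per kb), beside CLN3 (27.0 CPM per kb) and CLB3 (26.1 CPM per kb). Of neighbours in the aged order, CLB5 and CLN3, and CLN3 and CLB3, overlapped.

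Genes that act with the cyclins were read from lists by role, each described by its counts beside the background of 32.7% higher and 30.8% lower. With total counts only, where the median feature was at 0.54, CKS1, SWI4, MBP1, MCD1, FKH2, HRT1, SPO12 and CCL1 lost the calls given below, and HSL1, TOS4, NDD1, SWI5, DSE3, PCL9, CDC53 and APC4 turned direction. The kinase subunit CDC28 stood at 46.1 ± 2.75 CPM in young libraries and 53.3 ± 2.19 in aged libraries (SD, n = 3; log2 fold change 0.21, edgeR adjusted p = 0.0268). This call held with neither offset, and leaving out young library 2 or 3, or aged library 1 or 3, gave adjusted p-values of 0.0627 to 0.106. Of the 7 genes for Cdc28, its partners and its inhibitory tyrosine switch, 1 rose and 2 fell, against 6 and 0 with total counts only. The small subunit CKS1 fell by 0.67 on the log2 scale (adjusted p = 0.00222) and HSL1, a kinase that counters Swe1, by 0.29 (adjusted p = 0.00869). SWE1, the kinase that inhibits Cdc28, averaged 37.8 CPM in the young libraries and 38.2 CPM in the aged ones (adjusted p = 0.890).

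Of 13 genes for Start and G1 control, 4 rose and 5 fell, against 8 and 1 with total counts only. Subunits of the factors that CLN3 helps to switch on were among those that fell. MBP1, the DNA-binding subunit of MBF, went from 84.8 ± 3.92 to 55.2 ± 1.79 CPM (SD, n = 3; log2 fold change −0.62, edgeR adjusted p = 3.74e-05), and SWI4, that of SBF, fell by 0.58 on the log2 scale (adjusted p = 0.000317). NRM1, a repressor of MBF targets that is itself an MBF target, fell by 0.88 (adjusted p = 6.07e-05). XBP1, a repressor induced by stress and starvation, rose most of the 13, from 7.52 ± 1.62 to 17.0 ± 1.19 CPM (SD, n = 3; log2 fold change 1.17, edgeR adjusted p = 7.12e-05). WHI4, an RNA-binding protein related to the CLN3 regulator Whi3, rose by 0.43 on the log2 scale (adjusted p = 0.00398).

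WHI5, the repressor of SBF that Cln3 opposes, stood at 9.31, 6.37 and 8.38 CPM in young libraries and at 12.4, 10.7 and 9.90 CPM in aged libraries. The groups were separate (log2 fold change 0.45, edgeR adjusted p = 0.0226), but without aged replicate 1 the adjusted p was 0.100. The call was lost with the GC offset, with or without the replicate block, and with the length offset. It held with the length offset and the block together. FAR1, which restrains G1 cyclin kinase in the pheromone response, went from 124.9 ± 9.20 to 147.2 ± 4.61 CPM (SD, n = 3; log2 fold change 0.24, edgeR adjusted p = 0.0203). Without aged replicate 1, 2 or 3 its adjusted p was 0.0506, 0.0652 and 0.0503, and it passed under neither offset.

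Of 30 other G1/S targets of SBF and MBF, 5 rose and 9 fell, with a median log2 fold change of −0.01, whereas 22 rose and none fell with total counts only. The cohesin subunit MCD1 fell by 0.72 on the log2 scale (adjusted p = 1.28e-05) and TOS4 by 0.51 (adjusted p = 7.90e-05). GIC2, an effector of Cdc42 in bud growth, rose by 0.69 (adjusted p = 3.67e-05) and HCM1, a forkhead factor of S phase, by 0.35 (adjusted p = 0.00267), though HCM1 passed with neither offset. The log2 fold change of CLB5 was lower than that of every one of these 30 genes, and that of CLN2 was near their median.

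All 8 core histone genes, which are transcribed in S phase, fell, with a median of −0.62, the largest falls being those of HTA2 (−1.18, edgeR adjusted p = 2.39e-05) and HHT1 (−1.07, edgeR adjusted p = 2.48e-05). Without 1 library at a time 6 to 8 of them passed as lower, and with total counts only 3 did, with a median of −0.10. With the length offset 6 passed as lower and the median was −0.38, while with the GC offset all 8 did, with a median of −0.81. Of 8 early-G1 and licensing genes 4 rose and 2 fell, against 6 and 1 with total counts only. The helicase subunits MCM6 (0.46, adjusted p = 0.00127) and MCM3 (0.44, adjusted p = 0.000278) rose, and CDC6, which loads that helicase, fell by 0.79 on the log2 scale (adjusted p = 0.000219).

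Of the 6 mitotic transcription factors, 2 rose and 3 fell, whereas 3 rose and none fell with total counts only. FKH2 (−0.55, edgeR adjusted p = 0.000449) and its coactivator NDD1 (−0.50, edgeR adjusted p = 0.000539), which drive CLB2 and its cluster, fell. MCM1, a factor that works with Fkh2 at G2/M promoters, rose (0.34, adjusted p = 0.00316), though not with the GC offset. SWI5, the activator of SIC1, fell by 0.34 on the log2 scale (adjusted p = 0.00133). Of 16 G2/M targets 3 rose and 5 fell, against 12 and 1 with total counts only, and the largest fall was that of MYO1, the myosin of the division ring (−0.90, adjusted p = 2.49e-05).

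Markers of daughter cells were followed because daughters can remain among aged mothers. The young cultures, from which no device removed daughters, hold them too, and the share in either group is not given. Levels of these markers are therefore no measure of the daughters left among the aged cells. Of 10 genes listed as such markers, 6 rose and 1 fell, with a median of 0.31. How far each is confined to daughters was not tested. Of the 10, 4 passed as higher with the GC offset, 3 with the length offset and 9 with total counts only. Their summed level was 1055 to 1127 CPM in young libraries and 1250 to 1357 CPM in aged libraries, and none was at 0. PRY3 (0.92, edgeR adjusted p = 0.000376) and NIS1 (0.43, edgeR adjusted p = 0.000413, not past the test with the GC offset) rose and DSE3 fell by 0.36 on the log2 scale (adjusted p = 0.00642), while DSE1 (0.17), DSE2 (0.11) and DSE4 (0.06) did not pass the test. Of 6 other M/G1 genes 3 rose (all 6 with total counts only), among them the chitin synthase CHS1 (0.42, adjusted p = 0.00112) and EGT2, a cell-wall protein (0.33, adjusted p = 0.00630, not past the test with the GC offset), and 1 fell, the Pho85 cyclin PCL9 (−0.25, adjusted p = 0.00896). SIC1, which shares this M/G1 timing, did not move with them, and the part of daughters in any level given here was not tested.

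Genes that destroy the cyclins and Sic1 moved in mixed ways. Of 6 genes of SCF, the ubiquitin ligase that marks Sic1 and the Cln proteins, none rose and 3 fell after TMM scaling, whereas 3 rose and none fell with total counts only. Those that fell included the ring subunit HRT1 (−0.52, edgeR adjusted p = 0.00117) and the cullin CDC53 (−0.32, edgeR adjusted p = 0.00286). Of 15 genes of the anaphase-promoting complex, which marks the Clb proteins, 4 rose and 2 fell, against 13 and 1 with total counts only. The subunits SWM1 (0.54, adjusted p = 0.000705) and DOC1 (0.57, adjusted p = 0.00408) rose, and APC11 (−1.11, adjusted p = 3.64e-05) and APC4 (−0.46, adjusted p = 0.000283) fell, of which DOC1 and APC4 did not pass with the GC offset. Of 12 mitotic exit genes 2 rose and 1 fell, against 11 and 0 with total counts only. Those past the test after TMM scaling were the GTPase TEM1 (0.40, adjusted p = 0.00543), the kinase DBF2 (0.33, adjusted p = 0.0139) and SPO12 (−0.58, adjusted p = 0.00250), but DBF2 did not pass without aged replicate 3 or with the length offset, nor TEM1 with the GC offset.

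Cyclins of other kinases gave a further comparison. Of 10 cyclins of Pho85, a kinase of nutrient signalling, 3 rose and 1 fell, whereas all 10 rose with total counts only. PCL5, which targets the activator Gcn4 for destruction, stood at 32.4, 35.4 and 34.0 CPM in young libraries and at 77.6, 79.3 and 75.5 CPM in aged libraries (log2 fold change 1.19, edgeR adjusted p = 4.51e-07). This rise was larger than that of any Cdc28 cyclin. CLG1 rose by 0.25 on the log2 scale (adjusted p = 0.0115), though not without aged replicate 1 or with the length offset, and the Start-linked PCL1 and PCL2, at 0.02 and 0.08, did not pass. Of 4 cyclins of transcription kinases, CTK2 (−0.95, adjusted p = 3.20e-05) and CCL1 (−0.59, adjusted p = 0.000133) were among the 3 that fell, and SSN8 rose (0.32, adjusted p = 0.0333). The SSN8 call was lost on leaving out young library 2 or 3, or aged library 1 or 3, and also with the length offset (adjusted p = 0.179). With total counts only, 1 of the 4 passed in each direction.

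**Figure D4:**
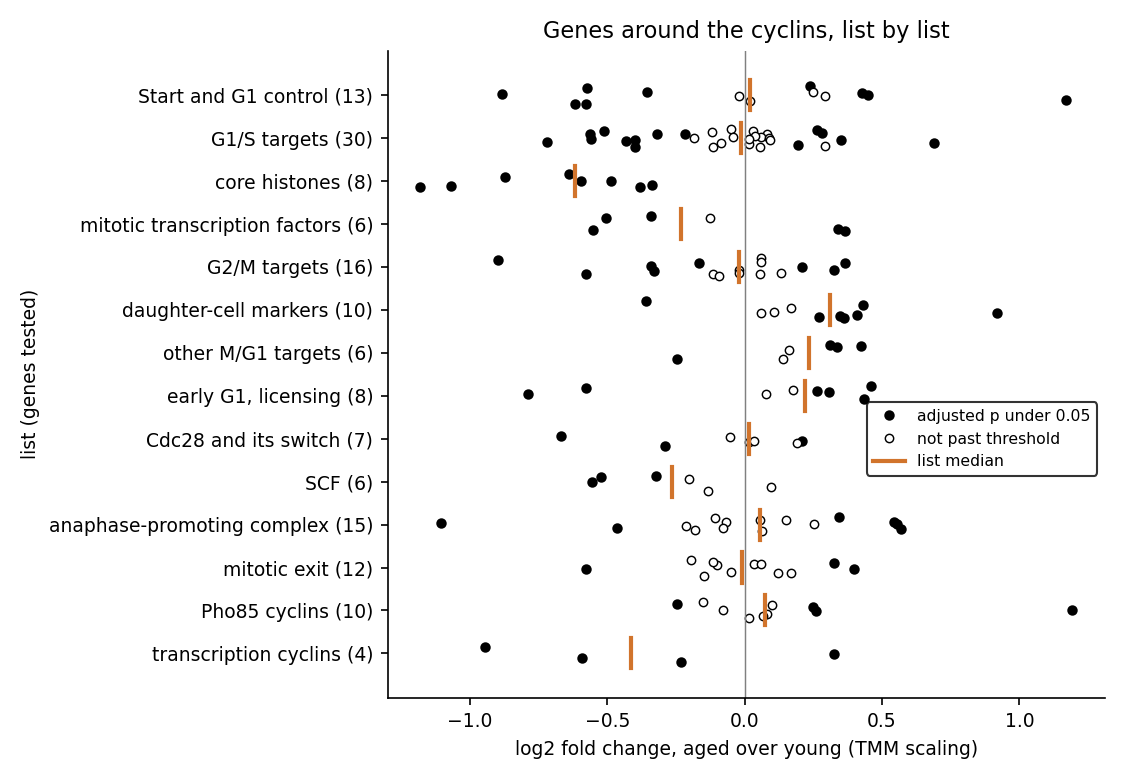
Log2 fold change (aged over young, TMM scaling) of each gene of 14 lists, 1 point a gene, with the number of genes tested after each name. Filled points had an adjusted p under 0.05, open points did not, and orange bars are list medians. All 8 core histone genes lie below 0 around a median of −0.62, and the daughter-cell markers have a median of 0.31.

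For each of the 10 genes the feature with the most similar profile was found among 5431 features of at least 10 CPM, by the Pearson correlation r of log2 CPM over the 6 libraries. These were DFG16 for CLN3 (r = 0.999), STB3 for CLN1 (r = 0.980), YOR343W-B for CLN2 (r = 0.970), YLR198C for CLB5 (r = 1.000), SLM2 for CLB6 (r = 0.993), YGR035C for CLB3 (r = 1.000), TMA64 for CLB4 (r = 0.998), GPA2 for CLB1 (r = 0.997), CFT2 for CLB2 (r = 0.998) and SWC5 for SIC1 (r = 0.959). With 6 points in 2 groups r follows the step between the groups as well as the spread within them, and the best of so many features is always high. It takes no account of the size of a change, and YGR035C had a log2 fold change of −2.24 against −0.39 for CLB3. Features with r above 0.95 numbered 1135 for CLB5, 938 for CLB3 and 746 for CLN3, but 1 for CLN2 and 1 for SIC1, so most of the named features were not singled out. With total counts only, an alternative added after the data were seen, r was −0.68 for CLB3 and YGR035C and 0.47 for CLB2 and CFT2, so these likenesses depend on the scaling.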

How the data were processed

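Poly(A) RNA of 3 young and 3 aged cultures was sequenced as paired reads of 150 bases. The authors deposited estimated counts per feature, not normalized, of which 54.3% to 59.5% per library are fractional. The submitters' processing notes name bcl2fastq, cutadapt 2.6, STAR 2.7.6a, featureCounts, Subread 1.6.2 and the build R64. Settings, strand and annotation are not given in the sources used here. Reads shared by several features could have been divided, which affects near-identical genes most.

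Each column was assigned by its library name, and 0 were left over. Counts were rounded, filtered with filterByExpr (minimum count 10, leaving 6755 of 7127 features), scaled by TMM and tested with edgeR 4.0.16 in R 4.3.3 (quasi-likelihood F-test, 2-sided, group as the only term, Benjamini-Hochberg, threshold 0.05). Fold changes were not shrunk, unlike those of the authors, who ran DESeq2. Scaling factors were 0.765 to 0.896 in young and 1.15 to 1.24 in aged libraries. At 29230292 to 41650202 counts per library, the spread between replicates set the precision (common biological coefficient of variation 0.0873), and no molecular identifiers were used. The replicates are labelled biological. Ratios used a pseudocount of 0.5 and exact permutation tests adjusted over 7 pairs. By systematic name, or by symbol where that failed, 6138 features matched RefSeq R64, from which positions, coding length, GC content and promoters were read. Lengths and GC content were available for 5978 tested features (88.5%) and all 148 genes of the 16 lists.

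The batch numbers of the labels pair the samples, and deviations from the group means of same-numbered libraries correlated at 0.256, 0.522 and 0.230. Differently numbered libraries correlated at −0.461 to 0.319. The highest of these, young 1 with aged 3, exceeded the same-numbered values of 0.256 and 0.230. The fit with the replicate block is an alternative. The others were DESeq2 size factors, total counts or upper-quartile scaling, DESeq2's Wald test (1.42.0), limma-voom (limma 3.58.1), no filter except a total above 0, a minimum of 10 counts per library, loess offsets (span 0.5) on GC content or coding length with and without the block, a threshold of 0.01 and leaving out each library. The scripts were tested on simulated data.

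The genes, lists and tests were chosen with earlier results of these data known. Beyond the 10 genes, the rule named up to 2 genes past the threshold with the lowest adjusted p in each direction of each list, CDC28, WHI5, FAR1 and SWE1, and the feature most like each of the 10. DSE1, DSE2, DSE4, PCL1 and PCL2 were named after their values were seen. The a-specific genes MFA1 (1.26, adjusted p = 0.00110) and AGA2 (1.96, adjusted p = 0.000396), which were low throughout, and the alpha-specific MF(ALPHA)1 (−0.44, adjusted p = 0.00599), MF(ALPHA)2 (−1.58, adjusted p = 1.28e-05) and SAG1 (0.33, adjusted p = 0.00464) were named by the rule as well, with their log2 fold changes (edgeR). Of the a-specific genes 3 of 6 rose, and of the alpha-specific 1 of 4 rose and 2 fell. One gene that this rule names is not reported here.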

Additional observations from a re-analysis of the deposited data

How the results depend on the processing

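The 10 genes under 19 alternatives gave 190 values, of which 159 kept direction and side of the threshold. Of the others, 20 changed sign, and, counting those, 8 lost the call and 10 gained one. The replicate block changed the call of none of the 10 genes. With total counts only, 4639 features were higher and 562 lower, with 5 of the 10 genes higher and 1 lower. With the offset on coding length 1 of the 10 was higher and 7 were lower, and the same numbers held with the replicate block (1 and 7). The sign turned with total counts only for CLN1 (0.35), CLB3 (0.13), CLB4 (0.068), APC4 (0.050), CDC53 (0.19), DSE3 (0.16), HSL1 (0.22), MF(ALPHA)1 (0.083), NDD1 (0.017), PCL9 (0.27), SWI5 (0.18) and TOS4 (0.0020), all under the median of 0.54 under that scaling. Values near 0 also turned. CLN2 was at −0.013 with DESeq2 size factors, −0.013 in the Wald test, −0.083 with the GC offset (−0.081 with the block) and −0.22 with the length offset (−0.21 with the block). SIC1 was at −2.9e-05 in the Wald test, −0.20 with the GC offset (−0.20 with the block) and −0.072 with the length offset (−0.072 with the block). SWE1 was at −0.0046 with DESeq2 size factors, −0.0047 in the Wald test, −0.012 with the GC offset (−0.017 with the block) and −0.087 with the length offset (−0.090 with the block). The cause of the shifts with the offsets was not tested.

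Leaving out each library in turn gave 3569 to 4523 features past the threshold, 2 of the 10 genes higher throughout and 5 to 6 lower. CLN2 then ranged from −0.050 to 0.066, SIC1 from −0.015 to 0.058 and SWE1 from −0.059 to 0.092. The log2 ratio of CLB3 over CLB4 ranged from −0.0056 to 0.11 and that of SIC1 over CLN2 from −0.074 to 0.082, while CLN1 over CLN2 ranged from −0.27 to −0.054 and CLB1 over CLB2 from 0.78 to 0.91. With 3 libraries a group no ratio could pass its test, and age, culture system and remaining daughters cannot be told apart.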
